A study of Mus musculus with 2 samples.

Results

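Of the 34650 names carried by the non-control features of a mouse whole-genome expression array, 4607 (13.3%) are not genes but stretches of the mm9 genome, each named by its chromosome, start, end and strand (F for forward, R for reverse), and described in the array files as long intergenic noncoding RNA. They were taken from 1 rule, the form of the name, so no measured value entered the choice. They were measured in bone marrow-derived macrophages of 2 genotypes, c-Maf+/- and c-Maf-/-, grown from mouse bone marrow for 5 days with M-CSF supplied as CMG14-12 culture medium and then stimulated with lipopolysaccharide (LPS) at 100 ng/ml for 5 h. Both groups therefore shared the M-CSF and the LPS, no unstimulated or wild-type sample was compared, and the control itself lacks 1 copy of Maf, the gene of the transcription factor c-Maf. Each genotype was represented by 1 one-colour array, both on the same slide, so no difference below has a replicate check and no p-value is given. Which part of Maf was deleted is not given in the labels, nor are the age of the animals and the number of them behind each RNA.

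Long intergenic noncoding RNAs are transcripts that lie between protein-coding genes and carry no long open reading frame. Many are spliced and polyadenylated like messenger RNAs but are kept at lower levels and in fewer cell types, and some, such as Xist and Neat1, act in the nucleus on chromatin or as scaffolds of nuclear bodies. Macrophages switch on such transcripts next to immune genes when Toll-like receptors, LPS sensors among them, are engaged.

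The sequences that the results turn on are the 60-base probes of a few regions, printed 5′ to 3′ as the array files give them. The chromosome 19 region is shown because its 3 probes, on the reverse strand, gave like differences:
chr19:5834543-5834602: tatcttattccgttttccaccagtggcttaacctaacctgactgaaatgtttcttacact
chr19:5834603-5834662: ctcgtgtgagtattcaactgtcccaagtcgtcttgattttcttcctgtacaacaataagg
chr19:5834857-5834916: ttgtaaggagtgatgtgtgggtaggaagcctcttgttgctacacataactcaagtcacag
The next pair comes from 2 chromosome X regions whose probes hold the same 48 bases, in capitals, so that they cannot be read as separate measurements:
chrX:120354479-120354538: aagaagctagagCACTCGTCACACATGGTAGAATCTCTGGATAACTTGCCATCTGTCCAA
chrX:120812737-120812796: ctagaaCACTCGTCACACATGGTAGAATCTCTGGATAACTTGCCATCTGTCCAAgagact
Another pair shows a region probe beside a gene probe: the brightest region shares 45 bases, in capitals, with a probe of Rps16, a protein of the small ribosomal subunit:
chr11:22681800-22707775_R: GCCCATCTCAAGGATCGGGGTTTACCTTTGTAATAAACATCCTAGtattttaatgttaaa
Rps16: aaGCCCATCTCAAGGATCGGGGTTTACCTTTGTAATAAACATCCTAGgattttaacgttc
The last 2 are probes of 1 region whose signals moved in opposite directions, with an undetected probe between them:
chr2:33500908-33500967: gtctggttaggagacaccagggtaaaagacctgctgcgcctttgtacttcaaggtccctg
chr2:33501079-33501138: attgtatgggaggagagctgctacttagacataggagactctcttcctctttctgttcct

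The targeted gene was read first, as a check of the labels. The signals of the Maf probes were 15101 and 541 on the c-Maf+/- array and 12.6 and 5.96 on the c-Maf-/- array, where neither was well above background. All 8 macrophage markers examined (such as Csf1r, the M-CSF receptor, and Cd68) were well above background on both arrays, with a median log2 difference of 0.01. The 7 neutrophil markers were also detected on both arrays, with signals that summed to 7750 on the first array and 4894 on the second and a median log2 difference of -1.21, and the part of such cells in the differences of the regions was not tested. The median differences were -0.60 for 5 dendritic cell markers, -0.88 for 3 stroma markers, 0.53 for 3 megakaryocyte markers and 0.77 for the 2 erythroid markers measured, whose parts were not tested either. In RNA from a whole culture, fewer cells of a type and less RNA per cell cannot be told apart. The 75th percentile of the signals was 291 and 296 on the 2 arrays, and the lowest signal well above background 22.3 and 24.2.

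The regions made up 16181 of the 55681 non-control probes (29.1%), with 1 spot each. They lay on all 20 chromosomes named in the files, 2318 on the forward and 2289 on the reverse strand, at 3540 loci, 1067 of which carried probes for both strands. Their median length was 10676 bp, from 62 to 7128487 bp, and 182 were longer than 100 kb. A region had 1 to 10 probes, most often 3 (1809 regions). All 16063 probes with mapped coordinates lay inside the region they are named for and on its strand, while 118 had none. The word intergenic did not hold for each: 569 regions (12.4%) contained a probe of a named gene on their own strand and 319 only on the opposite strand, which left 3719 (80.7%) with no such probe inside. Regions also overlapped each other, since 2104 shared bases with another on the same strand, and 995 of their probes (6.15%) shared at least 30 bases in a row with another probe of the array.

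About the same number of regions was detected on each array. A region was called detected when at least 1 of its probes was flagged well above background, which held for 2313 regions (50.2%) in c-Maf+/- and 2314 (50.2%) in c-Maf-/-. Among all 30043 other names the shares were 53.0% and 52.7%. In all, 2053 regions had a probe detected on both arrays and are called measured below, 225 were detected in c-Maf+/- only, 226 in c-Maf-/- only, 35 on both arrays but through different probes, and 2068 (44.9%) on neither.

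The similar shares hid a lower detection per probe. Of the region probes 25.9% were detected in c-Maf+/- and 25.4% in c-Maf-/-, against 51.9% and 51.6% of the probes of other names. At an equal 3 probes per name, 45.7% and 46.6% of regions were detected, against 79.3% and 78.8% of the 1305 other names. The share of regions detected in c-Maf+/- went from 28.8% with 1 probe to 87.5% with 9. Of the 726 measured regions of 3 probes, 448 (61.7%) rested on 1 of the 3, 150 on 2 and only 128 (17.6%) on all. The median signal of region probes detected on both arrays was 116 in c-Maf+/- and 113 in c-Maf-/-, where that of other probes was 661 and 675; the signal of a probe also depends on its sequence.

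**Figure D1:**
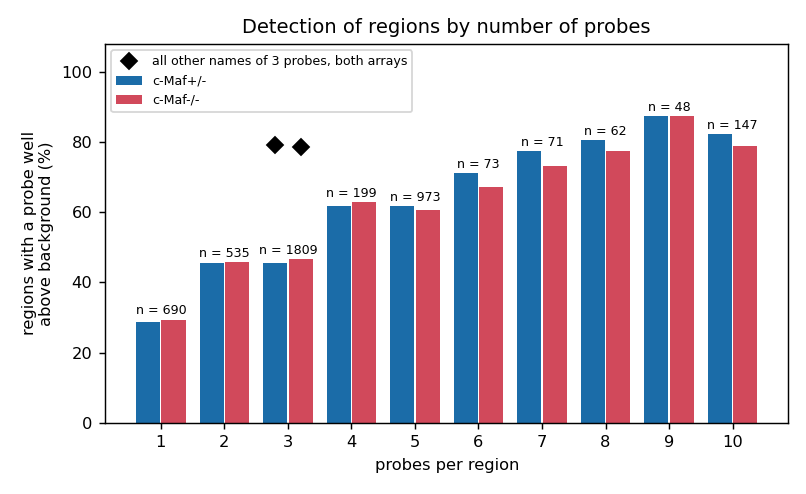
Share of regions (in percent, vertical axis) with at least 1 probe well above background, by number of probes per region (horizontal axis), for the c-Maf+/- and the c-Maf-/- array; n is the number of regions, and the diamonds mark the 1305 other names of 3 probes. The arrays give similar shares, and regions of 3 probes lie at 45.7% and 46.6%, below the diamonds at 79.3% and 78.8%.

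What a region lies near, and what its probes are made of, went with detection. Of the 433 regions with a measured gene inside their bounds, 67.7% were detected in c-Maf+/-. The share was 52.2% with the nearest measured gene up to 10 kb away, 50.0% at 10 to 100 kb and 42.3% beyond 100 kb. Measured genes were themselves detected on both arrays, and some of their probes share bases with region probes. With any named gene probe inside on the same strand, detected or not, the share was 56.2%, against 48.7% with none inside. Among regions of 3 probes, 38.3% of the shortest 454 were detected in c-Maf+/- and 52.2% of the longest 452. Of region probes in the lowest group by GC content (15 to 38.3%), 13.5% were detected on both arrays, against 18.6% in the middle group and 40.2% in the highest (46.7 to 88.3%). How GC content, length, number of probes and distance to a gene relate to each other was not tested. Along the measured regions of at least 3 probes, which by that choice have more detected probes than the rest, the share changed little: 43.4% of probes in the third nearest the 5′ end were detected on both arrays, 39.7% in the middle and 39.5% in the third nearest the 3′ end. By chromosome the share in c-Maf+/- ran from 40.5% (chromosome 3) to 60.1% (chromosome 14).

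Most measured regions differed little between c-Maf-/- and c-Maf+/-. Differences are log2 signals scaled by each array's 75th percentile, c-Maf-/- minus c-Maf+/-, averaged over the probes of a region detected on both arrays. Over the 2053 measured regions the median was -0.07 (SD 0.36 across regions, range -1.89 to 2.88), and 97.7% lay within 2-fold. Past 2-fold lay 28 regions that were higher in c-Maf-/- (1.36%; other names 1.37%) and 19 that were lower (0.926%; other names 1.57%), where 15116 other names were measured. Over all signals, the share of higher regions was therefore that of the background. At like signal it was lower. Where the dimmer signal was under 2 times the lowest well above background, 3.67% of regions and 4.76% of other names were higher. At 10 times or more the shares were 0.334% (2 of 598 regions) and 0.570%. Below 0 lay 61.8% of the regions and 53.2% of the other names, whose median was -0.02. Scaling by the spike-in transcripts moved the median of the other names to 0.13 and that of the regions to 0.07, and turned the 28 higher and 19 lower regions into 37 and 11.

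**Figure D2:**
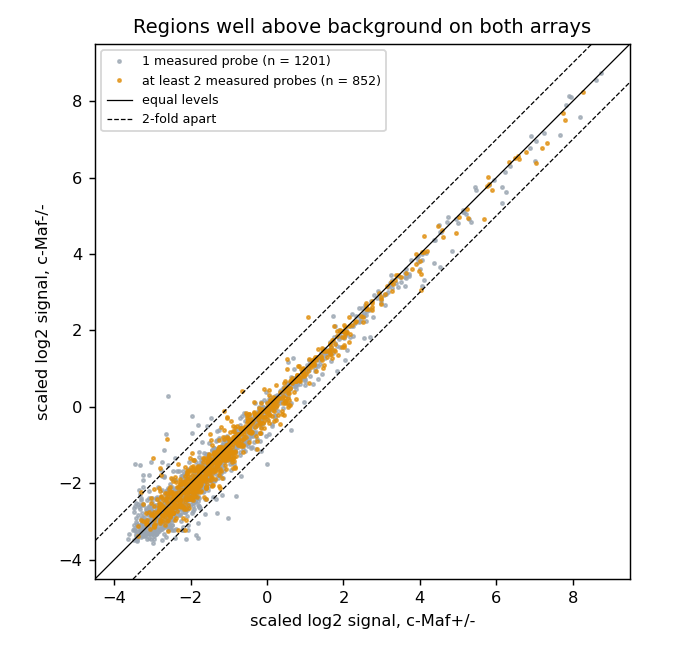
Scaled log2 signal of the 2053 measured regions on the c-Maf+/- array (horizontal) and the c-Maf-/- array (vertical), 1 point per region, with lines at equal levels and 2-fold apart. The points past 2-fold, 28 above and 19 below, gather at the dim end, and 39 of these 47 rest on 1 measured probe.

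Regions past 2-fold were mostly dim and rested on little. Of these 47, 39 had a single measured probe, although together they carried 177 probes, 58 of them measured. In 27 of the 47 (57.5%) the dimmer signal was under 2 times the lowest signal well above background, which was so for 19.9% of all measured regions. Among the 852 regions with at least 2 measured probes, 7 were at least 2-fold higher (0.822%; other names with as many probes 0.48%) and 1 lower (0.117%; other names 0.988%). Among the 392 with at least 3, 3 were higher (0.765%; other names 0.459%) and 0 lower (other names 0.153%). With normexp background correction and an offset of 50, which damps dim signals, 5 of 2053 regions passed 2-fold upward and 2 downward. The shares of the other names dropped too, to 0.516% (78 of 15116) and 0.761% (115 of 15116).

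Among the 392 regions with at least 3 measured probes, the highest difference came from one between the probes of Neat1 and Malat1 on chromosome 19; whether it lies in a transcript of either gene was not analysed here. Its name is chr19:5834117-5835940_R, and its 3 probes (printed above) had signals of 787, 678 and 416 in c-Maf+/- and 2090, 1735 and 962 in c-Maf-/-. All were higher in c-Maf-/-, by 1.38, 1.33 and 1.18 on the log2 scale, a mean of 1.30 (SD 0.10 over 3 probes), or 2.46-fold. It was 1 of only 2 regions in which each of at least 2 measured probes passed 2-fold. Neat1, the noncoding RNA scaffold of nuclear paraspeckles, has its probe 6.62 kb away on the same strand, with signals of 3313 and 6105 and a difference of 0.86. The region lies at lower coordinates than that probe, which on the reverse strand is further along the direction of transcription. Malat1, an abundant RNA of nuclear speckles 38.2 kb away on the same strand, gave 0.71 (SD 0.05 over 4 probes), while Frmd8, 15.4 kb away, gave -0.07.

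The region chr19:5834117-5835940_R and the others below were picked after their values were seen, as the 6 highest and 6 lowest of the 392 regions with at least 3 measured probes. On the higher side, chr5:15146475-15170100_F had probe signals of 119, 159 and 124 in c-Maf+/- and 246, 313 and 266.5 in c-Maf-/-, which gave 1.02 (SD 0.06 over 3 probes). Its remaining probe was detected in c-Maf-/- only, at 15.0 and 30.4, and 2 of the probes share at least 30 bases with a probe of another chromosome 5 region. The locus chr11:95627874-95640824 was higher on both strands, by 0.78 on the forward strand (7 of 10 probes, SD 0.34) and 0.76 on the reverse (5 of 9 probes, SD 0.26). Zfp652, a zinc finger gene, differed by 0.79 as the mean of 2 probes, of which only 1 lies inside the locus, on the forward strand. That inside probe gave 1.06, and it shares 55 bases with a forward probe of the region, which gave 0.83. The measured forward probes gave differences from 0.28 to 1.40 and the reverse ones from 0.42 to 0.99. The region chr5:92556322-92558910_F was at 0.78, but its probes ranged from 0.48 to 1.27. The probe at 1.27 shares 59 bases with a probe of the transcript D430040L24Rik, which gave 1.40. A mean can also come from 1 probe: chr17:33995525-34028025_F, at 1.07, had differences of -0.25, -0.04 and 3.51. The probe at 3.51 went from 29.0 to 335, and the region had the widest spread of all (SD 2.11 over 3 probes). With probes of at least 2 times the lowest detected signal alone, it stood at -0.14. The next widest spreads were those of chr13:74743335-74754728_R, whose probes gave 0.17 and 2.23, and chr9:43738583-43757007_R, with -0.43 and 1.42.

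On the lower side, 2 of the 6 regions lay among the genes of the Trim30 and Ifi200 families. The region chr7:111530578-111539097_R had signals of 4794, 4889 and 4465 in c-Maf+/- and 2230, 2771 and 2410 in c-Maf-/-, a difference of -0.96 (SD 0.15 over 3 probes). One of its probes has the same 60 bases as the probe of Trim30c, a gene of the tripartite motif proteins, and the pair gave -1.13 and -1.08. The longer region around it, chr7:111526943-111545093, was at -0.40 on the same strand (1 probe) and -0.18 on the opposite strand (2 probes), and the neighbours Trim30a and Trim30b were at -0.30 and -0.53. The region chr1:175660642-175671878_R had signals of 36575, 9022 and 10186 in c-Maf+/- and 24026, 5282 and 5594 in c-Maf-/-, which gave -0.77 (SD 0.13 over 3 probes). Ifi207, a member of the interferon-activated Ifi200 family whose probes lie in and beside it on the same strand, was at -0.72, Ifi204 at -0.32 and Ifi208, on the opposite strand, at 0.08.

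The other regions of the lower side lay near measured probes of zinc finger genes or more than 100 kb from any measured gene. On chromosome 16, chr16:43623175-43624069_F stood at -0.78 (SD 0.17 over 3 probes) and the partly overlapping chr16:43623581-43642715_F at -0.70 (SD 0.09 over 4 probes); they use different probes. Zbtb20, a zinc finger repressor with a probe 4.09 kb upstream on the same strand, was at -0.43. The region chr1:138528250-138538250_F was at -0.74 (SD 0.41 over 5 of 10 probes), and Zfp281, a zinc finger gene with its probe 3.60 kb away on the same strand, at -0.71. All 5 measured probes lay within 138529338 and 138529643 and were lower in c-Maf-/-, by 0.36 to 1.37 on the log2 scale, while the 3 probes from 138535507 on were detected on neither array. The region chr15:68161768-68193518_R had no measured gene within 100 kb. Its 5 probes lay between 68175395 and 68175720 and were all lower in c-Maf-/-, at -0.47, -0.69, -0.70, -0.81 and -1.52 in order of position, with a mean of -0.84 (SD 0.40).

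**Figure D3:**
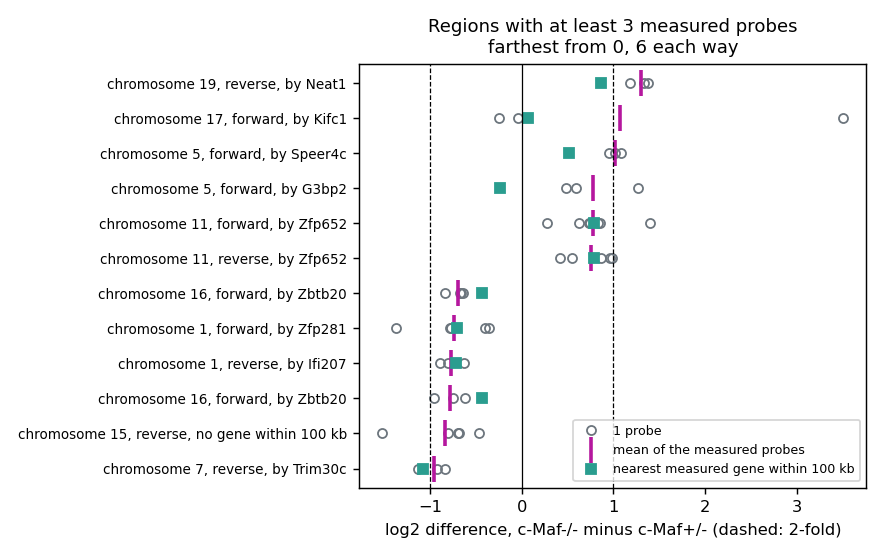
Log2 difference (c-Maf-/- minus c-Maf+/-, horizontal axis) of each measured probe (circles) in the 6 highest and 6 lowest regions with at least 3 measured probes, with their mean (bar) and the nearest measured gene within 100 kb (square); the dashed lines mark 2-fold. The chromosome 19 probes cluster between 1.18 and 1.38, whereas the chromosome 17 region by Kifc1 has its mean of 1.07 from 1 probe at 3.51.

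On chromosome X, 5 of the 59 measured regions (8.5%) were at least 2-fold higher in c-Maf-/- and 0 lower. Of measured regions on autosomes 1.15% were higher, and of other names 1.37%. On chromosome X, 4 of the 5 belonged to 1 set of 7 regions tied by shared probe bases. The set lies at 120353972 to 122630826, and 15 of its 19 probes share at least 30 bases with another probe (a pair is printed above). In it, 6 probes were detected in c-Maf+/- and 11 in c-Maf-/-. The measured regions were chrX:120353972-120361170_R at 1.60 (signals 35.6 and 110), chrX:120590872-120598071_R at 1.95 (26.7 and 105), chrX:120812236-121038407_R at 1.65 (2 probes, 37.3 and 35.7 against 91.0 and 150.5) and chrX:122623597-122630826_F at 1.06 (55.0 and 117). Of the others, chrX:121493684-121500532_F and chrX:122184810-122500048_F were detected in c-Maf-/- only, and chrX:121032646-121038407_R in c-Maf+/- only, by 1 probe at 24.8 and 18.3. Since the probes share bases, the 4 values are not independent. The c-Maf+/- signals of the 4 were between 26.7 and 55.0, where the lowest detected signal was 22.3, and with normexp the first 3 differences were 0.69, 0.85 and 0.77. The other 55 measured chromosome X regions had a median of -0.02, with 1 at least 2-fold higher. Xist, the noncoding RNA that silences the inactive X chromosome of females, had probe signals of 263 and 115 in c-Maf+/- and 5.43 and 6.25 in c-Maf-/-, where it was not well above background; the labels give no sex, and its part in these differences was not tested.

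**Figure D4:**
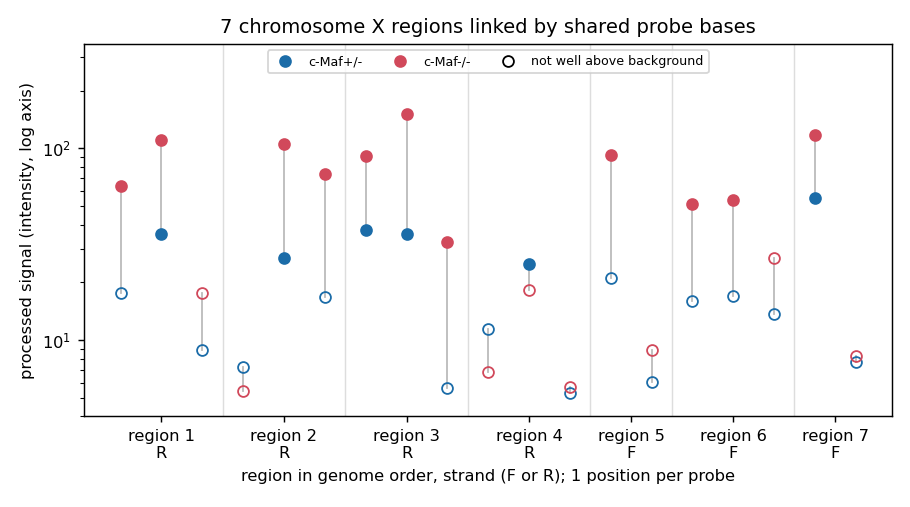
Processed signal (log axis) of the 19 probes of the 7 chromosome X regions tied by shared bases, in genome order, on the c-Maf+/- and c-Maf-/- arrays; open circles were not well above background, and a grey line joins the 2 arrays. The detected c-Maf-/- signals run from 32.4 to 150.5, each above its c-Maf+/- partner.

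The largest difference of any measured region rested on 1 probe. The region chr6:115468025-115489250_F had 1 of 4 probes detected, with signals of 48.3 and 363, a difference of 2.88 that became 1.79 with normexp. Of the 3 undetected probes around it, the nearest on the 3′ side went from 4.80 to 23.6. On the 5′ side, the nearest had signals of 5.6 and 6.0, and the next 4.53 and 7.81. The reverse strand of the same locus was at -0.42 (41.2 and 31.2), and Pparg, the gene of a nuclear receptor of lipid metabolism whose probe lies 27.8 kb away, at -0.32. Outside chromosome X, next came chr4:11899775-11931875_F at 1.94 (46.5 and 181). Of its other probes, 2 were detected in c-Maf+/- only and had lower signals in c-Maf-/-, at 29.1 and 15.2 and at 29.2 and 14.9. The regions chr15:101084597-101095097_R at 1.81 (28.9 and 103), chr1:92412246-92423471_F at 1.73 (74.5 and 251) and chr2:60038543-60046318_F at 1.58 (44.6 and 135) were each measured by 1 probe too. In the last, other probes went the opposite way (27.1 and 7.88, 27.3 and 14.8), and with undetected probes included it stood at -0.11, as did the chromosome 4 region. In the chromosome 1 region, a probe detected in c-Maf+/- only had signals of 35.2 and 16.5. By contrast, chr5:44173484-44176009_F, at 1.80, had 2 measured probes that gave 0.99 and 2.61 (52.9 and 106.8, 41.7 and 259). Its remaining probe, detected in c-Maf-/- only, differed by just 0.39 (24.55 and 32.73), and with normexp the region stood at 1.04.

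The 10 lowest regions, from -1.89 to -1.17, were each measured by 1 probe. The lowest was chr2:33496712-33501183_F, where 1 probe went from 144 in c-Maf+/- to 39.8 in c-Maf-/-, a difference of -1.89. Another probe of the same region (both are printed above) went from 5.08, not detected, to 55.2, so that these probes moved in opposite directions, and the probe between them was detected on neither array (5.34 and 5.84). It was followed by chr7:13533925-13544525_F at -1.63 (83.6 and 27.5), the only region past 2-fold that has 1 probe on the array, chr16:45016828-45069177_F at -1.52 (167 and 59.2) and chr8:19692532-19694101_R at -1.51 (80.8 and 29.0). In the last, the other 2 probes, detected in c-Maf-/- only, were higher there (20.2 and 45.9, 14.1 and 47.4), and with undetected probes included the region stood at 0.46. The brightest of the 10 in c-Maf+/- was chr10:84005221-84022896_R, at 449 and 196, a difference of -1.22 from 1 of 6 probes.

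A region detected on 1 array only has a bound and not a measured difference. The bound sets the signal on the array where the probe was detected against the other array, where the higher of the probe's own signal and the lowest detected signal is taken, all scaled. Detected in c-Maf+/- only were 4.88% of regions (2.63% of other names), and in c-Maf-/- only 4.91% (2.31% of other names). The bound was at least 2-fold for 24 of the first (10.67%; other names 18.6%) and 85 of the second (37.6%; other names 35.9%). Of these regions 211 of 225 and 206 of 226 rested on 1 detected probe. The largest bounds were at least 11.1-fold higher in c-Maf-/- for chr17:36136010-36136696_F (12.0 and 253, 1 probe), near the major histocompatibility gene H2-T24, and at least 10.1-fold higher in c-Maf+/- for chr15:38630866-38640611_R (239 and 12.9, 1 of 2 probes). Among the 5 largest bounds each way, the only one that rested on 2 detected probes was chr13:81773237-81783062_R, at least 8.36-fold higher in c-Maf-/-. Of its 7 probes 2 went from 4.97 to 162 and from 5.28 to 222, while the other probes stayed between 5.12 and 8.26 on both arrays. It lies 26.8 kb from Lysmd3, which was at 0.25. The region chr5:136150450-136160852_F was at least 6.84-fold higher in c-Maf+/- (163 and 5.94, 1 probe), and its neighbour went the opposite way. Rhbdd2, 28.6 kb away on the same strand, was at 2.57, also on 1 probe (26.4 and 159.9). Its c-Maf+/- signal was close to the lowest detected signal of 22.3.

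Probes of the same region gave like differences where signals were bright. Over the 852 regions with at least 2 measured probes, the median SD between probes was 0.19 and the 95th percentile 0.63, and in 446 (52.4%) all probes went the same way. The 3543 other names with at least 2 measured probes had a median SD of 0.09. In the 315 regions whose dimmer mean signal was at least 10 times the lowest detected signal, the median was 0.12. For comparison, 215 probes spotted at least 8 times per array had a median SD of 0.07 between spots. The array also holds 76 region probes with the very sequence of a probe under another name. Of these, 28 pairs were measured, with a median gap of 0.07 between their differences and a largest gap of 0.97, for chr14:115443612-115445950_F and Mir17hg (0.51 and -0.46, all signals between 48.6 and 73.0). Those pairs also gave a second name to some regions. The values in brackets are those of the paired probes, not of the whole region. The names were Pvt1 for chr15:62046023-62082530_F (-0.13 and -0.16), Dancr for chr5:74487385-74497428_F (0.62 and 0.50) and Rn45s, the ribosomal RNA precursor, for chr17:39983902-39985688_F (-0.04 and -0.02). Over all its measured probes, chr5:74487385-74497428_F stood at 0.12.

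Where both strands of a locus had probes, 1 strand alone was well above background more often than both, and the differences of the strands went with each other only weakly. Of the 1067 loci with probes for both strands, both were measured at 347 (32.5%), 1 at 457 (42.8%; 237 forward and 220 reverse) and neither at 263 (24.6%). With the looser flag for a signal significantly above background the order turned, with both strands at 732 loci and 1 at 269. Loci with probes for 1 strand were measured in 902 of 2473 (36.5%). Across the 347 loci, whose values share the array and in part lie near background, Pearson's r between the strands was 0.06 and Spearman's rho 0.08. The median gap was 0.22, and the sign the same at 195 (56.2%). The gap was widest at chr6:115468025-115489250, where the strands gave 2.88 and -0.42, followed by chr1:92412246-92423471 (1.73 forward, -0.16 reverse) and chr15:101084597-101095097 (-0.07 forward, 1.81 reverse) near Nr4a1, an immediate early gene at 0.46. At chr6:90915489-90940052 both strands were at 0.09, at mean signals of 39.9 and 43.3 forward and 11077 and 11115 reverse. The measured forward probes gave 0.05 and 0.13. The reverse ones were less alike, at 0.20 (419 and 491) and -0.03 (21735 and 21738).

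The differences of region and nearest measured gene went together most where the gene lay inside the region on the same strand. For the 170 such regions, Pearson's r between the difference of the region and that of the gene was 0.48 (Spearman's rho 0.49), and 0.62 for the 109 with at least 2 measured probes. It was 0.18 for 98 regions with the gene inside on the opposite strand. Outside the bounds but within 100 kb it was 0.09 on the same strand (734 regions) and 0.07 on the opposite (624 regions). These are descriptions over regions that share genes, bases and the same 2 arrays. Some region probes also share bases with the gene's own probe, such as those of Trim30c (60 bases) and Zfp652 (55 bases). Agreement in such pairs is partly set by the shared bases, and r without them was not computed.

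Next to the genes that differed most, the regions mostly stayed within 2-fold. So did 97.7% of all 2053 measured regions, of which 61.8% lay below 0. The small sets below were not tested against these shares. Near 13 genes at least 2-fold higher in c-Maf-/- lay 18 regions, 8 above and 10 below 0, with 1 past 2-fold. Near Vegfa, the vascular growth factor at 2.49, they stood at 0.66 and -0.30, and beside Dusp6, a phosphatase of MAP kinases at 1.52, at -0.36. Only chr13:15947521-15999246_F, at 1.06 on 1 probe (29.0 and 61.3), joined its neighbour B230303A05Rik, at 1.60. Near 14 genes at least 2-fold lower lay 20 regions, of which 14 were below 0 and none reached 2-fold. They include chr1:186560855-186563399_F beside Hlx, a homeobox gene at -1.09, with -0.62 (SD 0.11 over 3 probes), and chr16:11024315-11055740_F by Snn, at -0.07 beside -2.10.

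**Figure D5:**
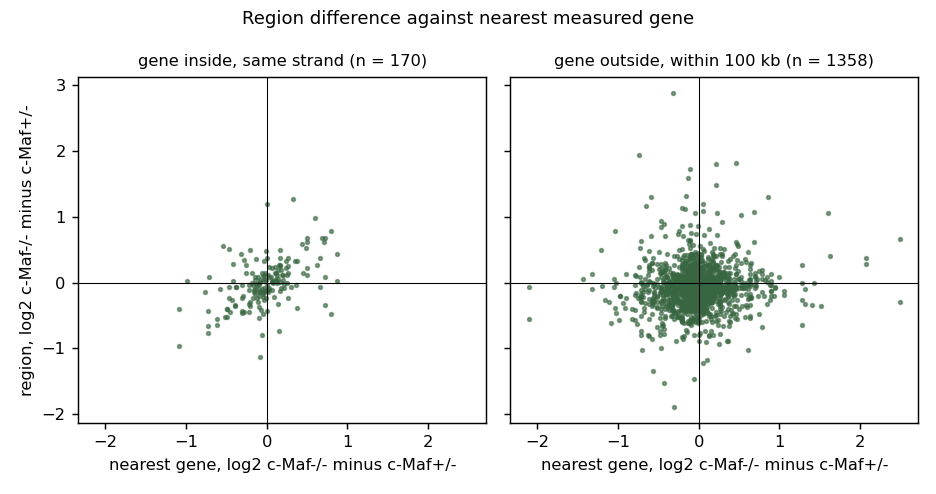
Log2 difference of measured regions (vertical axis) against that of the nearest measured gene (horizontal axis), c-Maf-/- minus c-Maf+/-, for 170 regions with the gene inside on the same strand (left) and 1358 with it outside within 100 kb (right). The left panel slopes upward (r 0.48), and the right panel shows no such slope (r 0.08). Some pairs in the left panel share probe bases.

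Few regions around Maf itself were measured. Within 1 Mb of its probes on chromosome 8 lay 5 regions. The nearer ones, chr8:117956760-117958872_R and chr8:118437894-118438330_R, 248 and 210 kb away, were detected on neither array. The other 3 overlap each other 863 kb away or further and stood at -0.01, -0.28 (5 probes) and -0.23 (3 probes).

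The brightest regions hardly differed. The chromosome 11 region that shares bases with Rps16 had signals of 124863 and 126947, and the Rps16 probe was at -0.02. Next were chr7:108209996-108216032_R (113472 and 110882) and chr17:17481706-17482457_R, whose 3 probes gave -0.04 (SD 0.01). In chr4:94742359-94822969_F, which contains the probe of Junos, the antisense neighbour of Jun, 1 of 2 probes was detected, with signals of 65615 and 71387. The other probe of the region was undetected, at 6.63 and 5.04. Jun, whose protein is part of AP-1, was at 0.28. Of the 8 brightest, chr18:47313842-47315840_F had the lowest difference, -0.61 on 1 of 3 probes (84637 and 56637).

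Long noncoding RNAs with names of their own stood beside the regions. Of 36 listed, 25 had probes and 16 were measured, 12 above and 4 below 0, with a median of 0.16. None of the 16 was past 2-fold in either direction. Among all names other than regions, 53.2% lay below 0, with a median of -0.02. Of those names 1.37% were at least 2-fold higher and 1.57% lower, so 0 of 16 past 2-fold lies near that background. Highest were Neat1 at 0.86, Gas5, a host of small nucleolar RNAs, at 0.72 (SD 0.45 over 3 probes) and Malat1 at 0.71. Morrbid, a regulator of myeloid cell survival, was at 0.16, and Mir22hg at -0.27.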

How the data were processed

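RNA of the 2 samples (50 ng each, per the labels) was hybridised in 1 colour (Cy3), and the deposited files hold the intensity of each spot as Agilent Feature Extraction 10.7.3.1 wrote it (protocol GE1_107_Sep09, design 028005, build mm9, per the file headers). The authors deposited processed intensities, background-subtracted by that software, and not normalized between arrays. From them, log2 values were computed here and each array's 75th percentile over non-control spots subtracted; the deposited files give no log2 values that were used. Each array held 62976 spots, 59305 of them non-control. Flagged outlier spots (2 among region probes in c-Maf+/-, 0 in c-Maf-/-) were left out; no spot was saturated. A probe counted as detected where its spots were flagged well above background. Region bounds and probe coordinates are those of the files, in mm9. Gene symbols were matched to a RefSeq table (GRCm38.p6, used for names only); 31741 of 39500 other probes matched.

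Members and lists were chosen with earlier results of these data known. Named regions were the 10 largest differences each way, the 5 largest bounds each way, the 8 brightest, the 4 most and 4 least alike strand pairs, the 3 widest probe spreads and neighbours within 100 kb; regions with at least 3 measured probes, and the linked chromosome X set, were added after their values were seen. Alternatives were normexp (limma 3.58.1, R 4.3.3), other scalings, filters, detection flags and distances. The counting was tested on simulated data. Python 3.11.15, numpy 2.4.6, pandas 2.3.3 and scipy 1.17.1 were used. With 1 array per genotype, the number of arrays limits the precision, and SDs over probes cover the array only.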

Additional observations from a re-analysis of the deposited data

How the results depend on the processing

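The 28 higher and 19 lower regions became 5 and 2 with normexp, 9 and 4 with no background subtraction, 13 and 7 where both signals had to be at least 2 times the lowest detected one, and 150 and 68 with no filter on dim probes. Spike-in scaling gave 37 and 11, that is 77.1% of calls higher in place of 59.6%. With at least 2 measured probes, an alternative chosen after seeing the data, 7 and 1 were left. The median of -0.07 became 0.07 with spike-in scaling and 0.05 without the filter. Quantile normalization (28 and 20), a percentile over detected probes (29 and 15), the brightest probe (33 and 24), and, both added after seeing the data, regions with no named gene inside (20 and 16) and no probes sharing 30 bases (21 and 20) stayed within 1.5 times.

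Detection by the significance flag gave 3833 and 3817 regions, and by every probe 509 and 499. Regions on 1 array only went from 225 and 226 to 24 and 85 with a bound of at least 2-fold, and to 15 and 38 with no probe significant on the other array. By that flag both strands were measured at 732 loci, 1 at 269 and neither at 66. The median SD between probes was 0.11 with normexp. The sign turned without the filter for chr2:33496712-33501183_F (0.55), chr2:60038543-60046318_F (-0.11), chr4:11899775-11931875_F (-0.11) and chr8:19692532-19694101_R (0.46), and for chr17:33995525-34028025_F with the stricter filter (-0.14) and the brightest probe (-0.04); beyond the added undetected probes, or the removal of 1 probe, the cause was not tested. Most region signals lie close to background, which limits every difference of a dim region. No paired analysis was possible because each genotype has 1 array and the labels carry no shared replicate numbers, and for the same reason no replicate could be left out.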
